A study of Mus musculus with 4 samples.

Results

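The transforming growth factor beta (TGF-beta) system of the embryonic heart was followed through 9 genes: the ligand genes Tgfb1, Tgfb2 and Tgfb3, the signalling receptor genes Tgfbr1 and Tgfbr2, the co-receptor genes Tgfbr3 and Eng, the endothelial receptor gene Acvrl1, and Ltbp1, whose product holds latent ligand in the matrix. The members were every probe set that the platform annotation pairs with exactly 1 of these symbols, which gave 16 of the 22626 probe sets that are not controls. Of these, 10 were bright enough to be tested, among 13403 tested in all, and they covered 7 of the 9 genes. The AV junction samples came from the atrioventricular junction of wild-type C57BL/6 mouse hearts at embryonic days 10.5 to 11.0, and the ventricular samples from the ventricular region of such hearts. About 80 hearts were dissected and pooled for each region, and 230 ng of AV junction RNA and 250 ng of ventricular RNA were amplified. Each region was hybridised to 2 Affymetrix MOE430A arrays, named 1a and 1b, and the sources used here do not say whether the 2 arrays read separate pools. P-values therefore measure the spread between arrays, which may be technical, and not the spread between hearts. The comparison asks which genes differ between the site of cushion formation and the chamber wall.

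TGF-beta ligands are secreted in a latent complex, anchored to matrix fibres by latent TGF-beta binding proteins, and must be released before they can act. Released ligand binds the type II receptor Tgfbr2, which then activates the type I receptor Tgfbr1 or, in endothelial cells, Acvrl1, and Smad proteins carry the signal to the nucleus. In the AV canal this pathway is known for its part in the change of endocardial cells into the mesenchyme that fills the cushions, the forerunners of the valves and septa. TGF-beta2 binds Tgfbr2 weakly on its own and is presented to it by the co-receptor Tgfbr3, also called betaglycan.

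Intensities are given after scaling each array to a common trimmed mean of 500. Log2 folds are the AV junction minus the ventricular region, fitted to the log2 of intensity plus 50, which understates the change of dim genes. A probe set was called where limma's p, adjusted by Benjamini-Hochberg over every probe set tested, did not exceed 0.05. Background was taken as the brightest Bacillus subtilis control of an array, which no mouse RNA should match. It read 58.6 and 52.6 on the AV junction arrays, against 97.9 and 104 on the ventricular arrays, so a dim probe set cleared it more easily in the junction. Pearson's r of log2 intensity across probe sets was 0.98 within each region and 0.947 to 0.95 between regions. Marker genes were read beside the tissue labels, from lists chosen with earlier results of these data known, so they are no independent check. Of 10 cushion mesenchyme markers 9 were called higher and 0 lower in the AV junction. All 8 ventricular chamber markers were called lower there. Over all genes tested 8.47% were higher and 6.54% lower. Twist1, Prrx1 and Papss2, among the 9, were bright enough to test only through their AV junction values.

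The messages for a ligand, both signalling receptors and a latency protein were higher in the AV junction. Among the 10 probe sets tested 4 were called higher, against 7.24% of all probe sets tested, and 0 were called lower, against 6.58%. The 4 belonged to Tgfb2, Tgfbr1, Tgfbr2 and Ltbp1 and were the brightest probe set of each. By gene, 4 of 7 were called higher, against 8.47% of genes tested, and 0 lower, against 6.54%, or 15.0% of genes in either direction. Tgfb3, Eng and Acvrl1 were not called, and Tgfb1 and Tgfbr3 were too dim to test. The median log2 fold was 0.65 over the 10 probe sets and −0.07 over all probe sets tested. Arrays of the regions did not overlap for 8 of the 10, as for 61.2% of all tested. In 7 of these both AV junction arrays lay above both ventricular arrays, as in 26.1% of all tested. By brightest probe set all 7 tested genes were free of overlap, against 62.4% of genes, with 6 higher in the AV junction, against 27.7%. Tgfb3 is among these 7 probe sets and 6 genes. It averaged 97.6 in the ventricular region, under the 100 needed for testing, so it was tested only through its AV junction values. In these bulk samples fewer cells of a type and less RNA per cell cannot be told apart. The call of Tgfb2 held without any 1 of the 4 arrays, while the other 3 calls each depended on single arrays, as given beside their values. With eBayes without trend those 3 calls were lost, at adjusted p = 0.0743 for Tgfbr1, 0.0639 for Tgfbr2 and 0.0743 for Ltbp1.

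**Figure D1:**
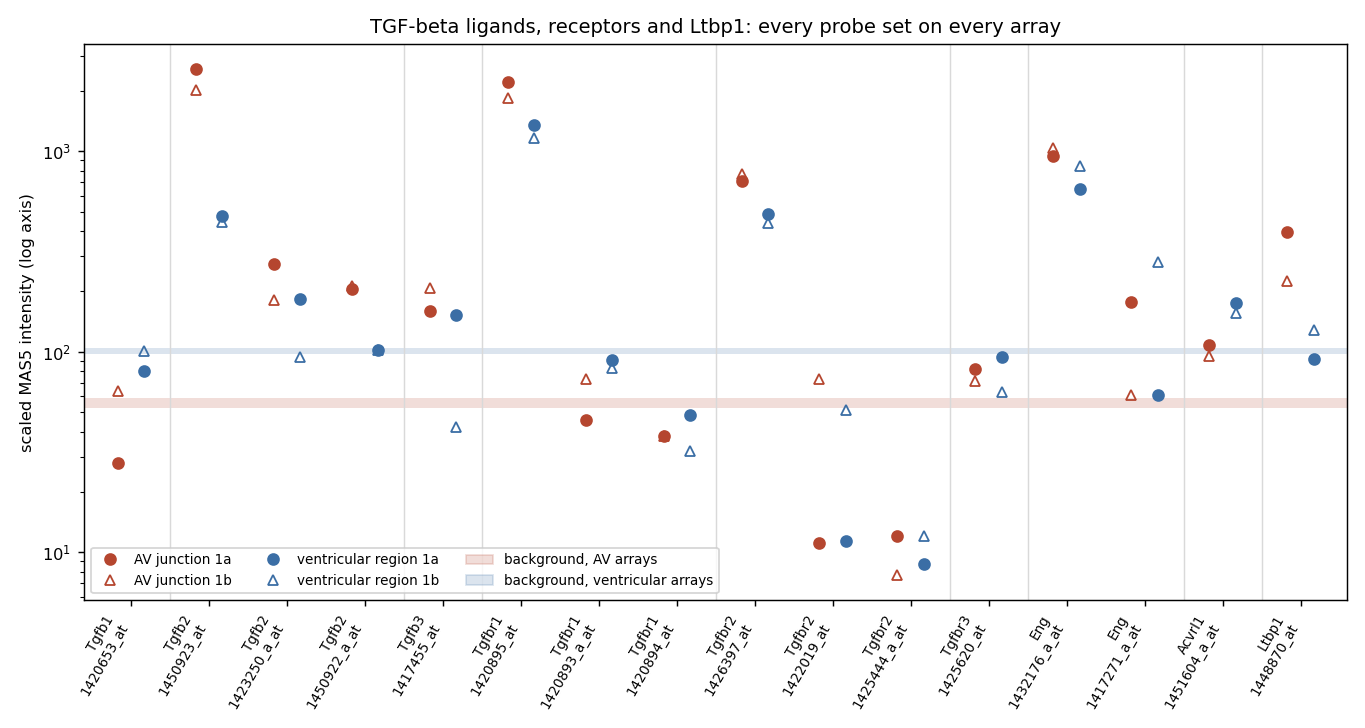
Scaled MAS5 intensity (log axis) of all 16 probe sets of the 9 genes on each array, with AV junction arrays left of ventricular arrays within each probe set. Filled circles are arrays 1a, open triangles are arrays 1b, and the shaded bands span the brightest Bacillus subtilis control of the arrays of each region. The brightest probe set of Tgfb2 shows the widest gap between regions, at 2565 and 2028 in the AV junction against 475 and 441 in the ventricular region.

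The start regions of the 4 genes called higher in the AV junction are shown, and whether these genes are regulated together was not tested. They are RefSeq windows of 300 bases in build GRCm38.p6, 250 before the annotated start and 50 from it onward, each read on the gene's own strand, and 6 of the 9 genes matched a window (not Tgfb3, Tgfbr3 or Acvrl1). Where a gene had 2 annotated starts, as Tgfbr1 and Ltbp1 did, the upstream one is printed. Capitals mark every match, on either strand, to the 6 motifs searched: the TATA box TATAAA, the E-box CACGTG, the cyclic AMP response element TGACGTCA, the CCAAT box CCAAT, the GC box GGGCGG and the palindromic Smad-binding repeat GTCTAGAC. No 2 matches overlap in the windows printed.
Tgfb2 (chr1:186705940-186706239, minus strand): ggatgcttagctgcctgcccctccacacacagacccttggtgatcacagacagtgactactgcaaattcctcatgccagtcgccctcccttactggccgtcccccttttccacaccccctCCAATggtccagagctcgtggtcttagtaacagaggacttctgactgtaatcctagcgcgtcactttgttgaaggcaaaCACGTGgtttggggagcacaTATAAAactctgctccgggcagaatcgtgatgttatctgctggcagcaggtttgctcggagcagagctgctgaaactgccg
Tgfbr1 (chr4:47352972-47353271, plus strand): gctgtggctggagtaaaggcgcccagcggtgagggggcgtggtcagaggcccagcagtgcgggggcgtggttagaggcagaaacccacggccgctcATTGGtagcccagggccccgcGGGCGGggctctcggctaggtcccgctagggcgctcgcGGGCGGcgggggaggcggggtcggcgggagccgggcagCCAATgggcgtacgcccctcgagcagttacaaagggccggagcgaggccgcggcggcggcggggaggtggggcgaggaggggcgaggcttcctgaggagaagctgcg
Tgfbr2 (chr9:116175314-116175613, minus strand): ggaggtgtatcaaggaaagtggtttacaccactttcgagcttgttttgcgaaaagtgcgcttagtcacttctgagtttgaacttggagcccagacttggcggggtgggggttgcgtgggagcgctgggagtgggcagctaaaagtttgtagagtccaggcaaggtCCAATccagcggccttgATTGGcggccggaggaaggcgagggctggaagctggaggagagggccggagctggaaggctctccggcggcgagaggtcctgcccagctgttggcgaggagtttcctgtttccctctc
Ltbp1 (chr17:75005279-75005578, plus strand): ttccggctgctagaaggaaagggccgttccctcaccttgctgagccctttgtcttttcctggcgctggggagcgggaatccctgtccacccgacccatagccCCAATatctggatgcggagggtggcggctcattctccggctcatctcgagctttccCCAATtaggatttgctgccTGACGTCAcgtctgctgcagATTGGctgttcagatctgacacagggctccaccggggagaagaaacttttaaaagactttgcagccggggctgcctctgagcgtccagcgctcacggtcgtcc

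The 4 windows shared only the CCAAT box, which was found in each of them and in 37.4% of the 32851 windows of the table. This depends on the start printed: the window at the second Ltbp1 start held 0 of the motifs searched, while that at the second Tgfbr1 start held a CCAAT box. A TATA box stood in the Tgfb2 window alone among the 4, with its first base 31 bases before the start, and in 13.6% of all windows. The E-box, found in 7.15% of all windows, was also seen only in Tgfb2, 51 bases before the start. Ltbp1 alone held a cyclic AMP response element, 73 bases before the start, a motif of 1.79% of windows. GC boxes lay in the Tgfbr1 window, as in 35.7% of all, and the Smad-binding repeat (0.213% of all) was in none of the 4. These are matches of letters and show neither binding nor use of a start.

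Tgfb2 encodes the ligand best known from AV cushion formation, and its 3 probe sets did not give 1 size of difference. The brightest, 1450923_at, read 2565 and 2028 in the AV junction, against 475 and 441 in the ventricular region. Both AV junction arrays stood far above the ventricular ones. The log2 fold was 2.20 with an SE of 0.14 (95% interval 1.87 to 2.53), a 4.59-fold difference (adjusted p = 0.000305), and ranked 28th highest of 13403. Without any 1 array the log2 fold lay between 2.03 and 2.36, with an adjusted p of at most 0.00308.

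The second probe set, 1450922_a_at, read 206 and 213 in the AV junction against 101.6 and 102 in the ventricular region. Its arrays did not overlap and hardly varied within a region, but the log2 fold of 0.77 (95% interval 0.28 to 1.27) missed the threshold (adjusted p = 0.0517). Of its ventricular arrays 1 of 2 was above background. The third, 1423250_a_at, read 275 and 182 in the AV junction against 183 and 94.2 in the ventricular region. Its lower AV junction array fell just below the higher ventricular one, and the log2 fold of 0.58 had an interval of −0.11 to 1.27 (adjusted p = 0.221). It was 0.34 without AV junction array 1a, 0.23 without ventricular array 1b and 0.93 without ventricular array 1a. All 3 probe sets were designed from 1 sequence record, per the platform annotation, and whether their folds differ was not tested. With the log2 values of the 3 averaged, Tgfb2 was higher by 1.19 with an SE of 0.17 (adjusted p = 0.0111).

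Tgfb3, a second ligand gene expressed in the forming cushions, differed more between the ventricular arrays than between the region means. It read 159 and 209 in the AV junction against 153 and 41.9 in the ventricular region. Ventricular array 1a lay close to AV junction array 1a, and ventricular array 1b lay below background. The log2 fold was 0.77 with an interval of −0.12 to 1.66 (adjusted p = 0.213). It was 0.19 without ventricular array 1b and 1.34 without ventricular array 1a (adjusted p = 0.0622). A difference as large as that of the second Tgfb2 probe set was therefore not detectable at this spread.

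Tgfb1, the ligand gene of endothelial and blood cells, was near background on every array. It read 27.8 and 63.3 in the AV junction, against 80.1 and 100.3 in the ventricular region, with 1 of 4 arrays above its own background, AV junction array 1b. The ventricular values were the higher ones, but they lay under the higher ventricular background. With no filter on dim probe sets the log2 fold of Tgfb1 was −0.57, with an interval of −1.30 to 0.15.

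Tgfbr1, the type I receptor that passes the signal to Smad2 and Smad3, read 2221 and 1853 in the AV junction against 1345 and 1167 in the ventricular region on 1420895_at. The regions did not overlap. On the log2 scale the difference was 0.67 with an SE of 0.13 (95% interval 0.37 to 0.98), or 1.60-fold (adjusted p = 0.0165). It missed the threshold without AV junction array 1a (0.55, adjusted p = 0.066) and without ventricular array 1b (0.58, adjusted p = 0.0868). The other 2 probe sets of Tgfbr1, designed from the same record, were not bright enough to test. They read between 38.2 and 73.4 in the AV junction and between 31.9 and 90.9 in the ventricular region, with only AV junction array 1b on 1420893_a_at above background. Averaged over all 3 probe sets, the log2 fold of Tgfbr1 was 0.11 and not called (adjusted p = 0.709).

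Tgfbr2, the type II receptor that binds ligand first, read 713 and 768 in the AV junction against 487 and 440 in the ventricular region on 1426397_at. Arrays of a region agreed closely and the regions did not overlap. The difference was 0.62 on the log2 scale with an SE of 0.13 (95% interval 0.31 to 0.93), or 1.54-fold (adjusted p = 0.0239). It kept a value between 0.56 and 0.69 without any 1 of the 4 arrays but missed the threshold each time, with an adjusted p between 0.0607 and 0.107. The receptor pair thus had overlapping intervals for their difference, and both intervals lay below that of the brightest Tgfb2 probe set. The other 2 probe sets of Tgfbr2, designed from 2 further records, read 7.71 to 72.7 in the AV junction, against 8.72 to 51.0 in the ventricular region. Of their 8 readings 1 was above background, that of AV junction array 1b on 1422019_at. Averaged over all 3 probe sets, the log2 fold of Tgfbr2 was 0.25 and not called (adjusted p = 0.446).

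**Figure D2:**
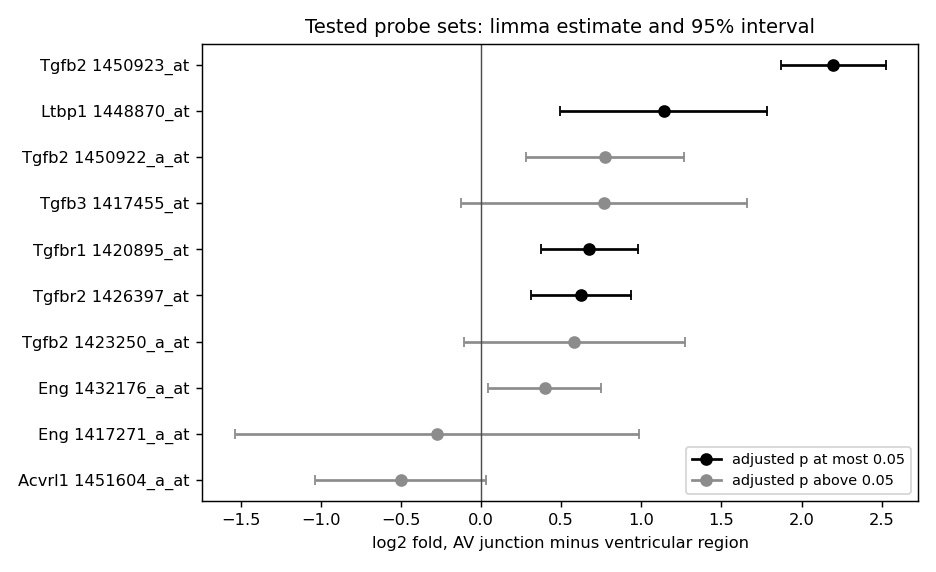
Log2 fold (AV junction minus ventricular region) of the 10 probe sets tested, with limma's 95% interval, black where the adjusted p was at most 0.05 and grey where it was above. The brightest Tgfb2 probe set lies at 2.20, apart from Ltbp1 at 1.14 and from the receptor genes Tgfbr1 and Tgfbr2 at 0.67 and 0.62, while Acvrl1 and the dimmer Eng probe set lie below 0.

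Tgfbr3, which presents TGF-beta2 to the signalling receptors, had 1 probe set that was too dim to test. It read 82.4 and 71.1 in the AV junction, against 94.2 and 62.7 in the ventricular region. The regions overlapped, and the ventricular arrays were below their background while the junction arrays were above theirs. With no filter on dim probe sets its log2 fold was −0.01, with an interval of −0.68 to 0.66.

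Eng, or endoglin, a co-receptor of endothelial and endocardial cells, read 949 and 1036 in the AV junction against 648 and 847 in the ventricular region on its brighter probe set, 1432176_a_at. The AV junction arrays were both higher, with a narrow gap. The log2 fold was 0.40 (95% interval 0.04 to 0.75) and was not called (adjusted p = 0.122), although it passed when arrays were centred on the median (0.55, adjusted p = 0.0488). It was 0.22 without ventricular array 1a and 0.58 without ventricular array 1b, and was called in neither case. The dimmer probe set, 1417271_a_at, read 176 and 60.7 in the AV junction, against 60.7 and 282 in the ventricular region. Arrays of 1 region disagreed here by more than the region means did, and the log2 fold of −0.28 had an interval of −1.54 to 0.99 (adjusted p = 0.757). Its sign turned without AV junction array 1b (0.24) and without ventricular array 1b (0.52).

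Acvrl1, the type I receptor of endothelium also called ALK1, read 109 and 95.2 in the AV junction against 175 and 155 in the ventricular region. It was the 1 tested member with both AV junction arrays below both ventricular arrays. Its log2 fold of −0.50 had an interval of −1.04 to 0.03 and was not called (adjusted p = 0.18).

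Endothelial genes went both ways beside Eng and Acvrl1. Of 12 markers of endocardium and endothelium 10 were tested, of which 2 were called higher (Tek and Nfatc1), 2 lower (Egfl7 and Robo4) and 6 not called. Among all genes tested 8.47% were higher and 6.54% lower. Tek, the angiopoietin receptor gene, was higher by a log2 fold of 0.98 and Nfatc1, a factor of cushion endocardium, by 1.38, while Egfl7, a secreted endothelial protein, gave −1.10 and the guidance receptor Robo4 −0.79. A second tested probe set of Nfatc1 gave 0.41 and was not called (adjusted p = 0.287), and of the other 3 probe sets of Egfl7 2 were called lower. These 4 were chosen for naming after their values were seen. The summed intensity of the 12 markers was 4918.8 and 5444.5 on the AV junction arrays against 4810.6 and 4751.3 on the ventricular arrays. None read 0 on any array, but the probe sets of Pecam1 and Tie1 were at or below background on all 4. The part of these cells in the values of Eng and Acvrl1 was not tested.

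Ltbp1, which binds latent TGF-beta covalently and deposits it in the matrix, read 396 and 226 in the AV junction against 92.2 and 128 in the ventricular region. The regions did not overlap, though the AV junction arrays were far apart and 1 of 2 ventricular arrays was below background. The log2 fold was 1.14 with an SE of 0.28 (95% interval 0.49 to 1.79), or 2.20-fold (adjusted p = 0.0356). It missed the threshold without AV junction array 1a (0.79, adjusted p = 0.169), without ventricular array 1a (0.98, adjusted p = 0.139) and without ventricular array 1b (1.30, adjusted p = 0.0753). It also missed when no filter was set on dim probe sets (adjusted p = 0.106).

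**Figure D3:**
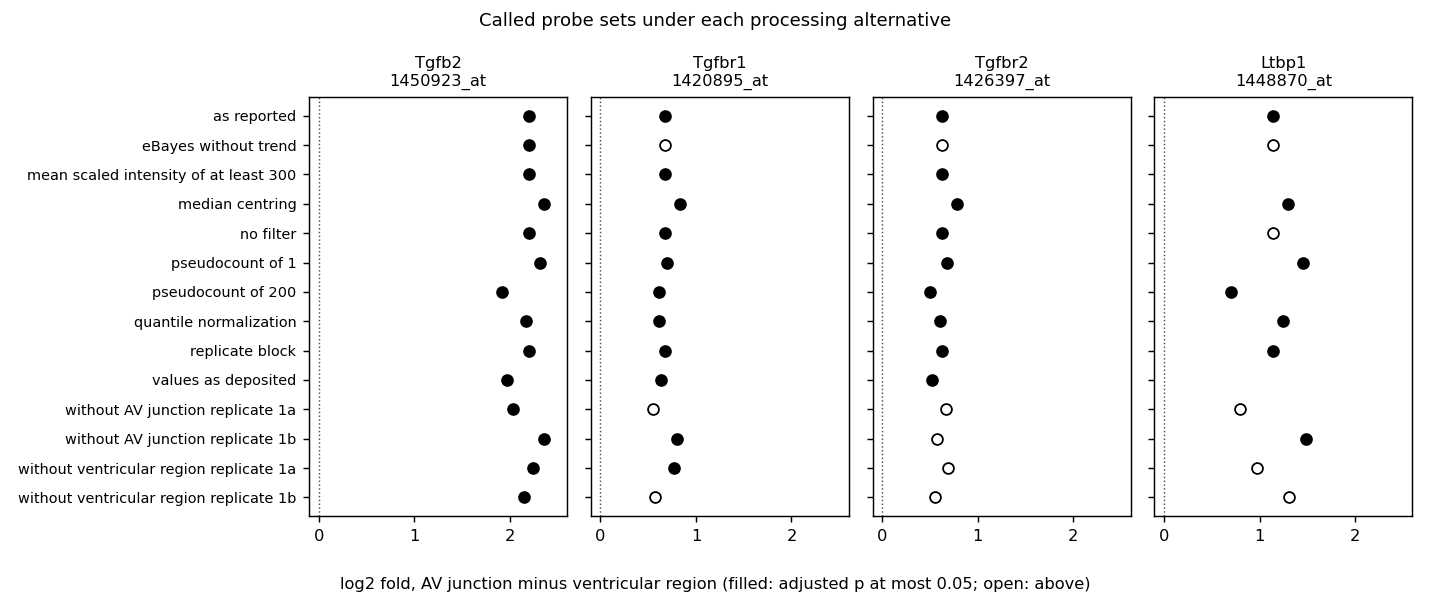
Log2 fold (AV junction minus ventricular region) of the 4 probe sets called higher, as reported and under the alternatives drawn. Filled points have an adjusted p of at most 0.05 and open points lie above it. Among the points drawn Tgfb2 is filled throughout, at 1.92 to 2.36, Tgfbr1 and Tgfbr2 stay between 0.50 and 0.83, and Ltbp1 ranges between 0.70 and 1.49. The mean of all probe sets of a gene is not drawn, nor the setting that left out probe sets ending in _x_at or _s_at. With that mean the log2 fold was 1.19 for Tgfb2, 0.11 for Tgfbr1 and 0.25 for Tgfbr2. Ltbp1 has no point where a floor left it untested.

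Markers of several cell types differed between the regions, some higher and some lower in the AV junction. The summed intensity of the 10 cushion mesenchyme markers was 20557 and 17778 on the AV junction arrays against 5801 and 5862 on the ventricular arrays, with 0 of them at or below background on all arrays. Of 6 hepatic and yolk sac markers 4 were tested, of which 3 were higher and 0 lower. Afp and Ttr, among the 3, were bright enough to test only through their AV junction values. The sums of the 6 were 7165 and 6798 in the AV junction against 532 and 509 in the ventricular region. The brightest probe set of Afp, 1 of these markers, had the highest log2 fold of all probe sets tested, 6.20 (adjusted p = 3.12e-06). It read 5214 and 4665 in the AV junction against 17.1 and 18.8, below background, in the ventricular region. Of 7 erythroid markers 6 were tested, of which 5 were lower and 0 higher. The sums of the 7 were 39277 and 40674 in the AV junction against 70386 and 77951 in the ventricular region. Cardiac muscle markers gave 4 lower and 0 higher of 10 tested, and epicardial markers 1 lower and 0 higher of 6. Of 3 tested macrophage and platelet markers 1 was higher and 0 lower. The higher one, Csf1r, gave 1.11 on its brightest probe set, but −0.45 and 0.01 on its other tested probe sets, which were not called. Over all genes tested 8.47% were higher and 6.54% lower. The part of these cells in the differences of Tgfb2, Tgfbr1, Tgfbr2 and Ltbp1 was not tested.

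The other genes of the pathway were taken from 5 lists. Of 59 genes listed 52 were on the array and 43 were tested, and in the AV junction 14 were higher, 2 lower and 27 not called, where 8.47% of all genes tested were higher and 6.54% lower. The median log2 fold was 0.23 against −0.06 over all genes tested. A gene was read by its brightest probe set.

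Among 8 tested genes of latency and activation 3 were higher, 0 lower and 5 not called, with a median of 0.22. The shares over all genes were 8.47% higher and 6.54% lower. Mmp2, given after its values were seen, was not called by its brightest probe set (0.20, adjusted p = 0.236). Its other probe set was called higher, at 1.41 (adjusted p = 0.0038). Fbn2, a fibrillin of the fibres to which latent complexes attach, read 1885 ± 127 in the AV junction, against 830 ± 122 in the ventricular region (SD, n = 2 each), a log2 fold of 1.14 (adjusted p = 0.00244). Ltbp3, a relative of Ltbp1, was higher by 0.62 (1727 and 1742 in the AV junction against 1105 and 1109 in the ventricular region), with an adjusted p of 0.0096 that became 0.053 without ventricular array 1a. Mmp14, a membrane protease that can release latent ligand, was higher by 0.64 (adjusted p = 0.0444) but lost its call when any 1 of the 4 arrays was dropped (adjusted p between 0.061 and 0.172). Without ventricular array 1a, 1 gene of this list was called.

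Among 10 tested regulators at the receptor level 2 were higher, 0 lower and 8 not called, against 8.47% higher and 6.54% lower over all genes. The median of 0.06 was −0.06 without AV junction array 1a, 0.03 without ventricular array 1a and 0.01 without ventricular array 1b. Bambi, a decoy receptor that lacks a kinase, read 1988.5 ± 296 in the AV junction, against 887 ± 51.7 in the ventricular region, a log2 fold of 1.11 (adjusted p = 0.00269). Fkbp1a, given after its values were seen, was not called by its brightest probe set (0.10). Another of its probe sets was called higher, at 0.65 (adjusted p = 0.0217), while those at 0.11 and −0.01 were not called. Strap, an adaptor that binds the receptors together with Smad7, was higher by 0.49 (adjusted p = 0.0296), with 0.37 and −0.05 on its other probe sets and no call there. Its call was lost when any 1 of the 4 arrays was dropped (adjusted p between 0.0514 and 0.137), which left 1 of 10 called each time, near the share over all genes.

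Of 7 tested Smads and nuclear regulators 3 were higher, 0 lower and 4 not called, against 8.47% higher and 6.54% lower over all genes. The median of 0.41 became 0.64 without ventricular array 1a and 0.19 without ventricular array 1b. Smad4, the Smad shared by all branches of the pathway, read 6614 ± 169 in the AV junction, against 3672 ± 122 in the ventricular region, a log2 fold of 0.84 (adjusted p = 0.00176), and its other 2 probe sets were called higher too, at 0.37 and 0.52. The inhibitory Smad7, itself switched on by the signal, was higher by 1.25 (883 ± 165 in the AV junction, against 340 ± 18.1 in the ventricular region). Skil, a repressor of Smad complexes, was higher by 1.01 (adjusted p = 0.0125) but lost its call with eBayes without trend (adjusted p = 0.0659). Smad2 and Smad3, which carry the signal, are given after their values were seen: Smad2 was not called (0.41, adjusted p = 0.201) and Smad3 was too dim to test.

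In the activin branch, which shares Smad2 and Smad3, 1 of 6 tested genes was higher, 0 were lower and 5 were not called, with a median of 0.32. Over all genes 8.47% were higher and 6.54% lower. The higher one was Acvr1, a type I receptor used mainly by bone morphogenetic proteins, at 690 ± 55.8 in the AV junction, against 341 ± 72.2 in the ventricular region (log2 fold 0.93, adjusted p = 0.0143). It missed without AV junction array 1b (adjusted p = 0.0649) and without ventricular array 1a (adjusted p = 0.0646), and 0 genes of the list were then called. A second probe set of Acvr1 gave −0.35 and was not called (adjusted p = 0.36).

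Genes known as targets of TGF-beta signalling in cultured cells went both ways. Of 12 tested 5 were higher, 2 lower and 5 not called, with a median of 0.77. Over all genes 8.47% were higher and 6.54% lower. Postn, a matrix protein of cushion mesenchyme, Has2, the hyaluronan synthase, and Tgfbi, a matrix protein named after its induction by TGF-beta, were higher by log2 folds of 2.22, 1.69 and 1.57. Postn is also among the cushion mesenchyme markers. The other probe sets of Tgfbi gave 1.80 and 0.57 (called) and 0.34 (not called, adjusted p = 0.37). Fn1, Col1a2 and Tsc22d1 are given after their values were seen. Fn1 was higher by 1.05, but its second probe set gave −0.04 and was not called (adjusted p = 0.895). Col1a2 was higher by 0.89, with 0.84 (called) on its second probe set. Tsc22d1 was not called by its brightest probe set (0.03). Its other tested probe sets gave 0.56 (called) and 0.40, −0.21 and −0.10 (not called). The 2 lower genes were Ccn2 and Tagln. Ccn2, the connective tissue growth factor gene, read 1924.5 ± 97.7 in the AV junction, against 4336 ± 399 in the ventricular region, a log2 fold of −1.15 (adjusted p = 0.00109). Tagln, a smooth muscle protein of the early heart muscle named after its values were seen, read 462 ± 69.8 in the AV junction, against 955 ± 41.0 in the ventricular region, a log2 fold of −0.98 (adjusted p = 0.00637).

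**Figure D4:**
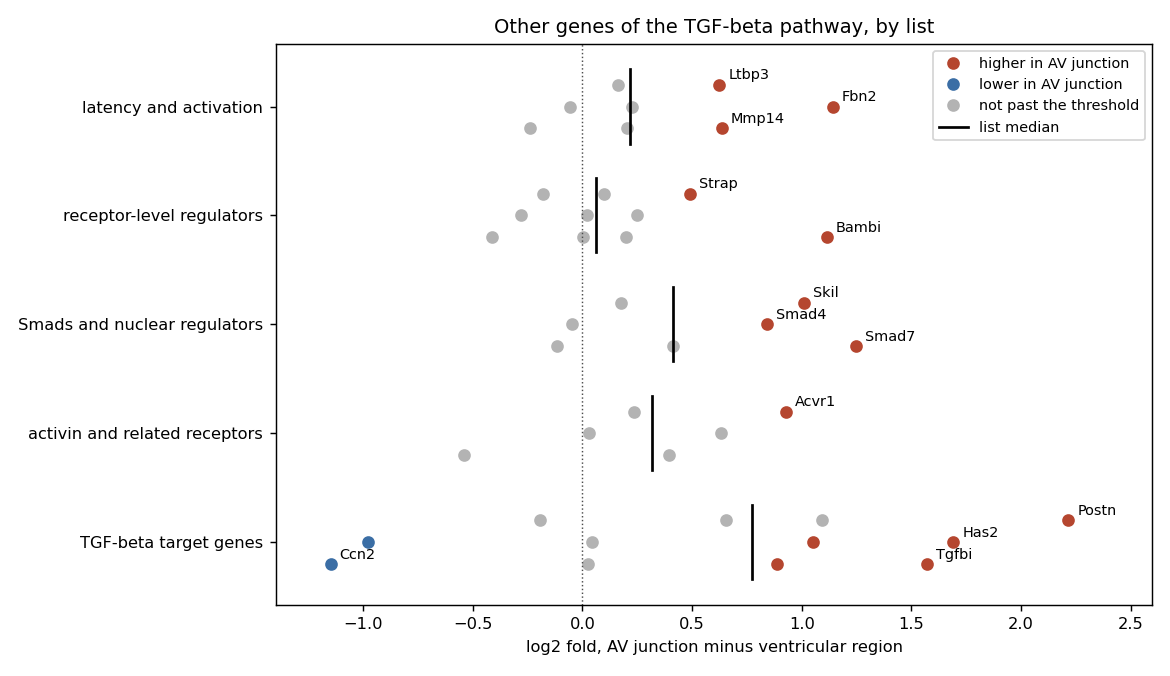
Log2 fold (AV junction minus ventricular region) of the 43 tested genes of 5 pathway lists, by brightest probe set, with genes called higher in red, genes called lower in blue, others in grey, and a black bar at each list's median. The target list is the widest, with Postn at 2.22 and Ccn2 at −1.15.

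The profile of Tgfb2 over the 4 arrays, read by its brightest probe set, had near neighbours of several kinds. By Euclidean distance between centred log2 profiles the 5 nearest probe sets of other genes were those of Cd248 (0.0964), Ttr (0.119), Hapln1 (0.159), Igfbp5 (0.172) and Postn (0.179). Cd248 encodes a surface protein of mesenchymal cells, Hapln1 the link protein of hyaluronan matrix, Igfbp5 a binding protein of insulin-like growth factors, and Ttr a carrier protein of liver and yolk sac. Cd248 read 279 and 229 in the AV junction against 16.1 and 16.1 in the ventricular region, and Ttr 568 and 417 in the AV junction against 72.4 and 73.8 in the ventricular region. The ventricular values of both were below background, so their likeness to Tgfb2 rests partly on the added 50.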

How the data were processed

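The authors deposited MAS5 intensity values on a linear scale, per the submitters' processing notes; the MAS5 version and detection calls are not given in the sources used here. Of 22626 probe sets that are not controls, 20380 had 1 symbol in the platform annotation. Intensities were multiplied so that the 2% trimmed mean of every array was 500, and probe sets averaging at least 100 were tested. After adding 50 and taking log2, region was fitted as the only term in limma 3.58.1 (eBayes with trend) under R 4.3.3 over 13403 probe sets, with 7.43 total degrees of freedom. Genes were read by the probe set of highest mean log2 value. Apart from choosing the brightest probe set of a gene and summing marker intensities on each array, no probe set's level was compared with another's. Such sums weigh the brightest probe sets most.

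The members, lists and tests were chosen with earlier results of these data known. Named were every probe set of the members, in each pathway list the 4 largest called changes, and the 5 probe sets nearest in profile to the member with the smallest adjusted p. With 2 arrays against 2, an exact permutation test cannot go below p = 0.333. The arrays were of 1 chip lot and hybridised together on 1 fluidics station, with modules 1 and 2 for the AV junction and 3 and 4 for the ventricular region, so module and region cannot be told apart. The 3'/5' intensity ratio of actin was 16.6 to 23.4, after RNA amplification. With 2 arrays per region, their number limits the precision. Figures were drawn with matplotlib 3.10.9.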

Additional observations from a re-analysis of the deposited data

How the results depend on the processing

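With eBayes without trend 2 probe sets of the 9 genes were called higher, both of Tgfb2, and 1 gene by its brightest probe set, and in the lists 1 gene of latency and activation, 1 receptor-level regulator, 2 Smads and nuclear regulators and 0 of the activin branch. The mean of all probe sets of a gene left 2 genes called, Tgfb2 and Ltbp1 (adjusted p = 0.044). Median centring called 2 activin genes, and no filter left 1 receptor-level regulator. Leaving out each array in turn gave 1 to 3 probe sets and 1 to 3 of the 9 genes called higher, 1 to 2 genes of latency and activation, 1 receptor-level regulator, and 0 to 1 activin gene. The dimmer Eng probe set then ran between −1.07 and 0.52 on the log2 scale, with 0.24 without AV junction array 1b and 0.52 without ventricular array 1b. No member was called lower under any alternative run. Beside the moved counts above, 165 of 186 recomputed counts stayed within 1.5 times the reported one. This share overstates stability, because it includes the counts called lower, which outside the target list were 0 as reported and stayed 0. All of the moved counts were counts called higher. Arrays 1a and 1b share only a label between regions (r of same-label deviations 0.06), and with this replicate block 5 probe sets and 4 genes were called higher, the fifth being the second Tgfb2 probe set (adjusted p = 0.0494), which also passed with quantile normalisation, median centring, a pseudocount of 200 and eBayes without trend. Median centring moved the median log2 fold of all probe sets to 0.09, against −0.07 as reported, and the share of higher among all calls to 78.9%, against 52.4%. The causes of these changes were not tested. Signal over background limits Tgfb1, Tgfbr3 and the dim probe sets of Tgfbr1 and Tgfbr2.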
